A study of Rattus norvegicus with 17 samples.

Results

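The effect of contusion on the spinal cord of rats that all received brainstem stimulation was measured as the contrast ±SCI(st), which sets the 3 rats of group C (SCI and stimulation) against the 5 rats of group E (sham injury and stimulation). The members are all expressed genes in the 8 rats, chosen by the group letter in the sample titles. Of 17 rats in the series 8 belong to these groups, and of 32494 Ensembl gene identifiers 15460 passed edgeR's filter on low counts and were tested.

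All rats were young adult female Sprague-Dawley rats 10 to 12 weeks old, with no genetic modification described. In group C a 10 g rod was dropped on the cord exposed at segment T8, which gives a moderate contusion, whereas sham surgery opened the vertebra only. Under anesthesia 3 days later, both groups received 2 h of 8 Hz stimulation through an electrode in the nucleus raphe magnus (NRM), a midline group of serotonin neurons in the medulla, and the cord was taken at the end of it. Groups A (sham injury, n = 4) and B (SCI, n = 3) had the electrode without current, and group D (SCI and stimulation, n = 2) also received pimozide, a receptor antagonist, at 1 mg/kg. For group E the treatment label says that the rats were not stimulated, which contradicts the group letter of the titles and the series' own design text, and the rats were analyzed as stimulated. If that label were right, the contrast would hold injury and stimulation together. Each rat gave 1 library, made from cervical, thoracic and lumbar cord together with its pia-arachnoid, so each value averages the lesion with cord above and below it. In such bulk RNA, fewer cells of a type and less RNA per cell cannot be told apart.

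A contusion of the cord tears small vessels and kills neurons and glia at the impact. In the first days neutrophils arrive from the blood, followed by monocytes that become macrophages, while resident microglia and astrocytes divide and change their transcription. Neutrophil granules are filled with antimicrobial proteins whose mRNA is made mostly in marrow precursors, and mature red cells and platelets have no nucleus but carry RNA left from theirs, so that such transcripts in a cord can come from blood held in its vessels as well as from cells in the tissue.

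The libraries held 10606401 to 11664116 counts on genes in group C and 10697838 to 14137717 in group E, so that 1 CPM (counts scaled to library size by TMM) rests on 10.7 to 14.3 counts in a rat. Within C and within E, pairs of rats gave a chi-square of 6.71 to 38 for each degree of freedom, where counting error gives values near 1, and no library was a copy of another. Only 99 identifiers, 98 of them tested, could be given a symbol, through identifiers that the study listed for transcripts it had picked between C and B or between D and C. Both of those picks use group C, so the named genes are not independent evidence of a direction in C. The pick between C and B also uses group B, so for its genes the difference between B and A is not independent of it. Markers of neurons, glia and macrophages were not among the named genes, and the labelled tissue was therefore not checked by its markers. Of 42 lists of marker and pathway genes, 7 had a named member and 35 had none.

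In ±SCI(st), 1285 of the 15460 genes (8.31%) were called. A call needed an FDR under 0.05 and a change of more than 1 in log2(FC) in either direction, by edgeR's quasi-likelihood test on all 17 rats with Benjamini-Hochberg adjustment. In group C 1134 genes were higher (7.34%) and 151 were lower (0.977%), so that 88.2% of the called genes were higher. Over the called genes, the median log2(FC) was 1.76 for those higher in C and -1.51 for those lower, against -0.02 over all genes tested. Rises were also the larger changes. A log2(FC) above 2 was reached by 451 called genes, above 3 by 131, above 4 by 34 and above 5 by 9, whereas 31 called genes fell below -2, 9 below -3, 2 below -4 and 0 below -5. Without the limit on fold change 4429 genes passed the FDR, and the 3144 of them within a 2-fold change were divided evenly, 1551 higher and 1593 lower. The excess of rises thus lay among the changes above 2-fold.

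Calls were commoner among genes of low level. Of the 4113 genes with a mean of 1 to 10 CPM over the 8 rats, 604 were called higher and 99 lower (17.1%), and of the 940 genes under 1 CPM, 123 and 31 (16.4%). Among 8270 genes between 10 and 100 CPM, 356 were called higher and 16 lower (4.5%), and above 100 CPM 51 and 5 of 2137 (2.62%). The groups did not overlap in 983 of the genes called higher and 136 of those called lower. Over all genes tested, 15.2% had every rat of C above every rat of E and 12% the reverse.

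**Figure D1:**
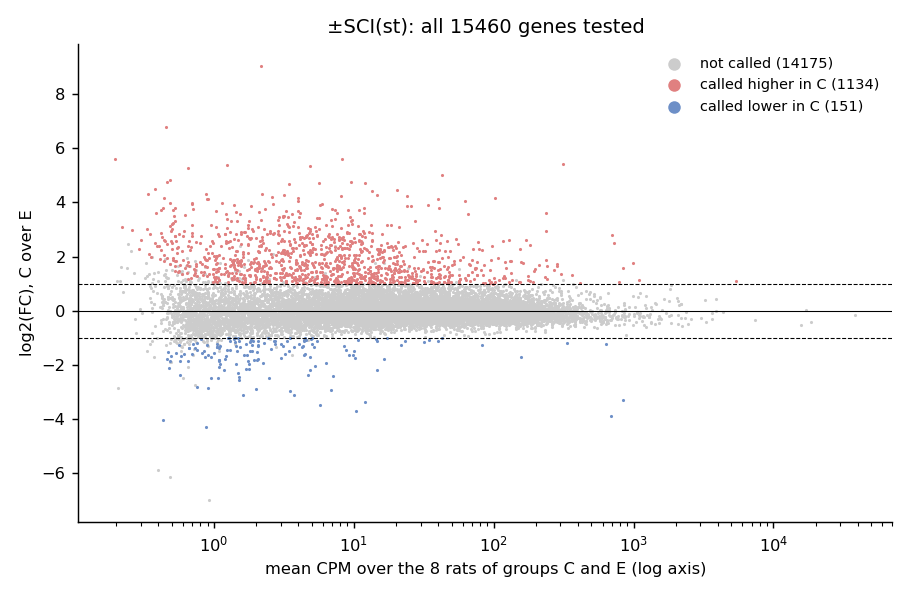
Each point is 1 of the 15460 genes tested, with its mean CPM over the 8 rats on a log axis and its log2(FC) of C over E on the vertical axis, and dashed lines mark the limits of 1 and -1. The 1134 genes called higher reach larger changes than the 151 called lower, and most of both lie under 100 CPM.

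The 3 injured rats did not carry the rises equally. Over the 1134 genes called higher, the median log2(CPM + 0.1) was 3.93 in rat C89, 3.33 in rat C90 and 2.85 in rat C93, and 1.26 to 1.65 in the 5 rats of group E. Rat C89 was the highest of the 3 in 985 of these genes (86.9%), rat C90 in 122 and rat C93 in 27, while among the genes not called rat C89 was the highest in 34.4%. Rat C89 was thus the highest for most of the genes that rose. Without rat C89, 812 genes were called (725 higher, 87 lower), and without rat C93, 1554 were called (1354 higher, 200 lower). In the rats that this comparison does not use, the same genes had medians of 1.43 to 1.66 in group A, 2.87 to 3.42 in group B and 3.01 and 3.93 in group D, so that every injured rat was above every intact rat.

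The 151 genes called lower did not separate the other rats in that way. Their median log2(CPM + 0.1) was -0.18 to -0.05 in group C and 1.27 to 1.54 in group E. In group A it was 1.25 in rat A82 but 0.42 to 0.57 in the other 3 rats, and it was 0.15 to 0.43 in group B and 1.07 in each of the 2 injured rats of group D. Group D thus stood nearer to group E than to the injured rats of B and C. Both rats of D were above all rats of B in 83 of the 151 genes (55%), against 10.7% of all genes tested, and rat A82 was the highest of its group in 89 (58.9%), against 25.9%. For the 117 genes without a symbol among them, these counts were 51 (43.6%) and 57 (48.7%). The part of such differences between libraries in the falls was not tested.

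**Figure D2:**
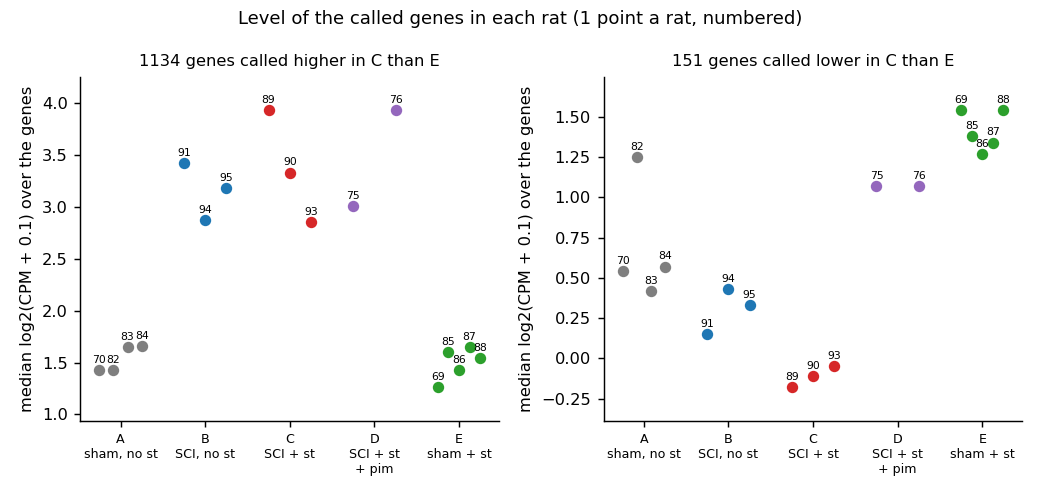
Each numbered point is a rat, and the vertical axis is the median log2(CPM + 0.1) over the 1134 genes called higher (left) or the 151 called lower (right) in C than E. On the left all injured rats (B, C and D) lie at 2.85 or above and all intact rats (A and E) at 1.66 or below, and on the right rat A82 (1.25) and both rats of group D (1.07) lie near group E.

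The same injury without stimulation, ±SCI(0), compared group B with group A and shares no rat with ±SCI(st). There 820 genes were called (5.3%), 787 higher (5.09%) and 33 lower (0.213%). Called in both contrasts were 726 genes, all with the same sign, 719 higher and 7 lower. They make up 56.5% of the calls of ±SCI(st) and 88.5% of those of ±SCI(0). Of the 1134 genes higher in C than E, 1084 (95.6%) were also higher in B than A, where 47.2% of all genes were, and their median log2(FC) there was 1.43. In 925 of them (81.6%) every rat of B was above every rat of A, against 17.4% of all genes tested. Of the 151 genes lower in C than E, 132 (87.4%) were lower in B than A, where 52.8% of all genes were, with a median log2(FC) of -0.58. In 24 of the 151 (15.9%) every rat of B was below every rat of A, against 15.1% of all genes tested, so that the falls of ±SCI(st) were near the background in that measure. Rat A82 was the highest of group A in 89 of the 151 (58.9%), against 25.9% of all genes tested. The share lower in B than A was not counted without that rat. Called in ±SCI(st) alone were 559 genes, 415 higher and 144 lower, and in ±SCI(0) alone 94. With each pair of groups fitted on its own rats, 1134 and 860 genes were called and 724 in both, again all with the same sign.

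Whether the injury effect differed with stimulation was tested directly as the interaction (C - E) - (B - A). No gene was called, with 0 genes at an FDR under 0.05 by edgeR's quasi-likelihood test and 635 (4.11%) at an unadjusted p under 0.05, and the smallest adjusted p was 0.804. DESeq2 also called 0. A gene called in ±SCI(st) alone is therefore not shown to differ between the contrasts.

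**Figure D3:**
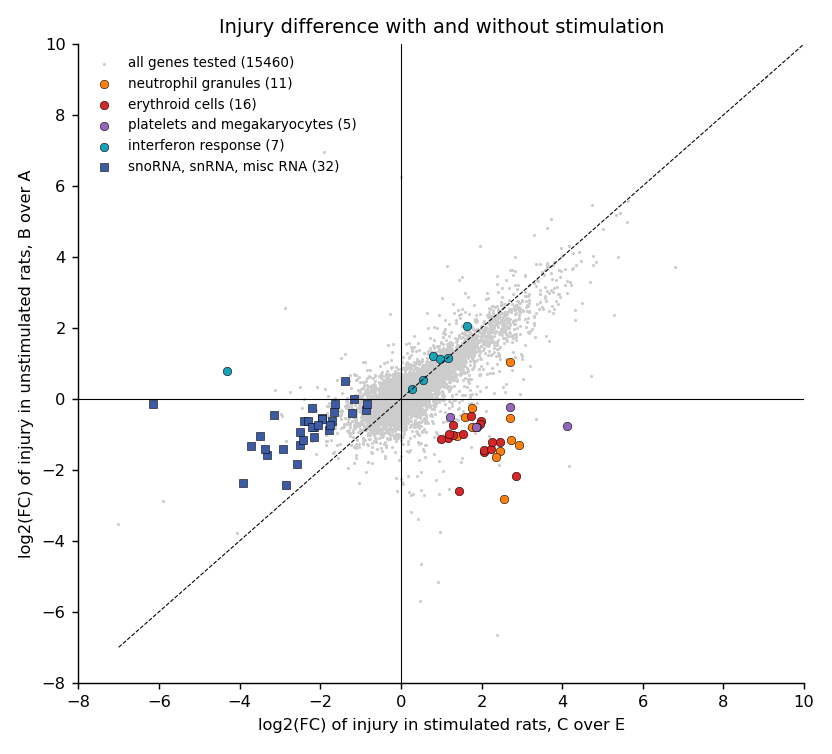
Each point is a gene, with the log2(FC) of injury in stimulated rats (C over E) on the horizontal and in unstimulated rats (B over A) on the vertical axis, and the dashed line marks equal values. Most genes that rose lie near the line, whereas the colored genes of the neutrophil, erythroid and platelet lists lie to the right with most of their values below 0 on the vertical axis, and the small RNAs lie to the left.

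Of called genes without a symbol, those described here averaged at least 1 CPM over the 8 rats and did not overlap between the groups, and of these ENSRNOG00000030187 rose most. It had 0 counts in all 5 rats of group E and stood at 11.1, 5.25 and 1.13 CPM in rats C89, C90 and C93. With a floor of 3 counts over group E, it was at least 119-fold higher in C. ENSRNOG00000048771 was at 42.8, 14.7 and 6.34 CPM in the same rats and at 0.085 to 0.859 CPM in group E, a log2(FC) of 5.61 (SE 0.70, adjusted p = 2.87e-05), where the SE is the size of the log2(FC) over the square root of the F statistic. Both were highest in rat C89, as most risen genes were. Within the same limits, the largest falls were those of ENSRNOG00000018185 (log2(FC) of -2.49, SE 0.68) and ENSRNOG00000029301 (log2(FC) of -2.46, SE 0.58). The files do not pair these identifiers with names.

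Genes of neutrophil granules were higher in stimulated injured rats. Of 16 genes on the list 11 were measured with a name, and 8 of them rose, 0 fell and 3 did not pass, where 7.34% of all genes tested rose, with a median log2(FC) of 2.46 against -0.02 over all genes. All 11 were picked by the study between C and B, so their values are not independent of the level in either group. In ±SCI(0), where 5.3% of all genes tested were called, 0 of the 11 were, a share near that background, and their median log2(FC) was -1.03. Without rat C89 or without rat C90, 4 of the 11 rose.

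Mpo, the myeloperoxidase of the primary granules, stood at 11, 13.1 and 4.95 CPM in rats C89, C90 and C93. In rats E69, E85, E86, E87 and E88 it stood at 0.68, 2.03, 0.14, 3.1 and 1.4 CPM. Every rat of C was above every rat of E, and the log2(FC) was 2.74 (SE 0.59, adjusted p = 0.0029). Defa5, an alpha-defensin, was at 12.7, 11.9 and 6.43 CPM in C and at 0.34, 2.58, 0.91, 2.82 and 2.8 CPM in E, again without overlap, at a log2(FC) of 2.46 (SE 0.59, adjusted p = 0.006). The other defensins, RatNP-3b and Np4, rose by a log2(FC) of 2.72 (SE 0.69) and 2.37 (SE 0.77). The 3 belong to the same gene family, and how reads were divided among its members is uncertain.

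The serine proteases Ctsg (cathepsin G) and Elane (neutrophil elastase) rose by 2.56 (SE 0.76) and 2.93 (SE 0.88) on the log2 scale from low levels, with Elane at 1.56, 1.75 and 0.695 CPM in C and 0.07 to 0.375 CPM in E. Fcnb, a ficolin that binds sugars on microbes, rose by 2.70 (SE 0.43, adjusted p = 0.00025), and was the only measured gene of the list with a log2(FC) above 0 in ±SCI(0) (1.05, SE 0.51, not called). Camp, the cathelicidin precursor, rose by 1.76 (SE 0.55). Leaving out rat C89 or rat C90 ended the calls of Ctsg, Elane, Camp and Np4, leaving out E86 also those of Camp and Np4, and Np4 was lost as well without E69 or E88 and under DESeq2 on all 17 rats, though not under DESeq2 on groups C and E alone.

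S100a8 and S100a9, the subunits of calprotectin, were the most abundant of the list and did not pass. S100a8 stood at 30.3, 35 and 22.5 CPM in C and at 1.11, 9.37, 2.1, 21.8 and 9.63 CPM in E, a log2(FC) of 1.75 (SE 0.68, adjusted p = 0.062). S100a9 stood at 40.1, 52.4 and 32.6 CPM in C and at 2.72, 15.7, 3.64, 34.2 and 14.2 CPM in E (log2(FC) of 1.58, SE 0.64, adjusted p = 0.073). Rat E87 was close to or above the lowest injured rat, rats E69 and E86 were the lowest, and both genes passed without E87, without the filter on low counts and under edgeR's exact test with scaling by total counts. Without E87 the log2(FC) was 2.40 for S100a8 and 2.21 for S100a9. Summed over the 11 genes, the level was 100 to 171 CPM in C and 7.65 to 86.2 CPM in E, and 6.56 to 95.6 CPM in A, 20.4 to 29.3 CPM in B and 28.2 to 41.3 CPM in D, so that the intact groups spread over more than the range of B and D.

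Genes of the erythroid lineage were also higher. Of 19 genes on the list 16 were measured, of which 14 rose, 0 fell and 2 did not pass, where 7.34% of all genes tested rose, with a median log2(FC) of 1.85 against -0.02. In ±SCI(0) 0 of the 16 were called, against 5.3% of all genes tested, and all 16 had a log2(FC) below 0 (median -1.13), as did 52.8% of all genes tested. Without rat C93 the count that rose was 9. All 16 were picked by the study between C and B, so their values in either contrast are not independent of that pick.

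Among proteins of the red cell membrane, the anion exchanger band 3, encoded by Slc4a1, stood at 21.5, 28.4 and 41.4 CPM in rats C89, C90 and C93 and at 3.91, 3.83, 2.73, 9.29 and 12.2 CPM in rats E69, E85, E86, E87 and E88, a log2(FC) of 2.27 (SE 0.53, adjusted p = 0.0048). Kel, the Kell blood group protein, was at 2.43, 3.04 and 4.08 CPM in C and 0.28 to 1.13 CPM in E (log2(FC) of 2.47, SE 0.56, adjusted p = 0.0041). Rhag and Rhd, of the Rhesus complex, rose by 2.86 (SE 0.86) and 1.96 (SE 0.55), and their calls were lost without rat C90 and without rat C93, respectively.

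Klf1, a transcription factor of red cell precursors, was at 1.83, 3.04 and 2.43 CPM in C and at 0.85, 0.469, 0.42, 1.13 and 0.788 CPM in E, with no overlap and a log2(FC) of 1.75 (SE 0.40, adjusted p = 0.004). Hemgn (hemogen, a nuclear protein of blood precursors) rose by 2.25 (SE 0.58), Ahsp (a chaperone of alpha globin) by 2.06 (SE 0.55) and Alas2, the erythroid enzyme that starts heme synthesis, by 1.54 (SE 0.44). These last 3 are not in the set given by the naming rule and were chosen after their values were seen. Car1, carbonic anhydrase 1, stood at 1.74, 3.31 and 1.91 CPM in C and did not pass (log2(FC) of 1.45, SE 0.84, adjusted p = 0.21). Rat E87 was at 3.38 CPM while the other rats of E were at 0.0781 to 0.525 CPM. Without rat E87 Car1 passed, at a log2(FC) of 3.11.

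The globins were the most abundant members, and the groups overlapped in Hba-a1, Hba-a2 and Hbb but not in Hbb-b1. Hba-a1 stood at 210, 266 and 635 CPM in rats C89, C90 and C93 and at 212, 108, 96.3, 189 and 216 CPM in group E, a log2(FC) of 1.17 (SE 0.42, adjusted p = 0.046). Rat C89 was below 2 rats of E, and rat C93 was far above all others. Without rat C93 the log2(FC) was 0.54, and the call was also lost without C90, E85, E86 or E87, under DESeq2, with robust dispersions and with a number-series term (rats 69 to 76 against 82 to 95). Hba-a2 and Hbb-b1 rose by 1.28 (SE 0.44) and 1.20 (SE 0.40), calls that were lost without C93, E85 or E86 and with the number-series term. That of Hbb-b1 was also lost without E87, and that of Hba-a2 under DESeq2 on groups C and E alone. Without rat C93 the log2(FC) was 0.63 for Hba-a2 and 0.76 for Hbb-b1. Hbb, at a log2(FC) just under the limit (1.00, SE 0.44, adjusted p = 0.096), did not pass, but passed under edgeR's exact test with scaling by total counts. Globins are a multigene family, and the division of reads among its members is uncertain. The sum of the 16 genes was 622 to 1814 CPM in C, 257 to 632 CPM in E, 215 to 1093 CPM in A, 298 to 423 CPM in B and 237 to 360 CPM in D.

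Promoter sequences are shown for the erythroid genes that hold the GATA motif AGATAA, since these genes moved together and GATA factors are known to act in red cell precursors. RefSeq (GRCr8) gave a promoter, 250 bases before to 50 after an annotated start, for 12 of the 16 genes, and the motif was found on either strand in 3 of these genes. Of all 33469 promoters 11.6% held it. That share counts promoters, of which a gene can have several, and is not directly comparable with the count of genes. Hemgn also has another annotated start without the motif. The motif, in capitals, lies 136 bases before the start in Alas2 (chrX:22895200-22895499, plus strand), 53 bases in Hemgn (chr5:65485772-65486071, minus strand) and 72 bases in Rhd (chr5:152370950-152371249, plus strand), each read 5′ to 3′ on the strand of the gene.
Alas2: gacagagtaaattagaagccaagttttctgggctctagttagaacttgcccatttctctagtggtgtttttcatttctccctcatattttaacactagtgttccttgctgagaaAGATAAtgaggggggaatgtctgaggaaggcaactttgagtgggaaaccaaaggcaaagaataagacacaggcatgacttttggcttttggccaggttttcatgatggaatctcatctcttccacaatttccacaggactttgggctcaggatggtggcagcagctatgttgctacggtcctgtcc
Hemgn: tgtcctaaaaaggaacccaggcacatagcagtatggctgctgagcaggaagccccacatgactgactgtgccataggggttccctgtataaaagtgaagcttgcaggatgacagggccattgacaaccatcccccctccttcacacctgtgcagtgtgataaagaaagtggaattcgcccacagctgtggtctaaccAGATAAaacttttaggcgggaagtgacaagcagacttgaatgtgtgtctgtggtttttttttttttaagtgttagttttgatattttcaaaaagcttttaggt
Rhd: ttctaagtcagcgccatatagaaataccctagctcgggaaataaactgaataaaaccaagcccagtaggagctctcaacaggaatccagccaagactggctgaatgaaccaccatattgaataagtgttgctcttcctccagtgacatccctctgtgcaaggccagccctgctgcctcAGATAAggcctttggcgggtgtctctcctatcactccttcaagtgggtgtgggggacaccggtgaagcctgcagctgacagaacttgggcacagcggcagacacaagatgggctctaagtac
A match describes the letters of the window and is not evidence of binding.

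Of 10 platelet and megakaryocyte genes 5 were measured and all 5 rose, where 7.34% of all genes tested did. The groups did not overlap in any of the 5, where 15.2% of all genes lay wholly higher in C, and the median log2(FC) was 1.90. In ±SCI(0) 0 of the 5 were called, against 5.3% of all genes tested, and all 5 were below 0 (median -0.77), as were 52.8% of all genes tested. Without rat C89 or without rat C90 the count that rose was 3. Itga2b, Ppbp and Mmrn1 were picked by the study between C and B, so their values in ±SCI(0) are not independent of that pick. Itga2b, the integrin alpha-IIb of platelets, stood at 10.4, 10.3 and 7.73 CPM in C and at 5.02, 4.69, 3.08, 3.94 and 3.5 CPM in E (log2(FC) of 1.23, SE 0.23, adjusted p = 0.0011). Ppbp, a chemokine precursor of platelet granules, was at 2.26, 3.31 and 1.04 CPM in C and at 0.17, 0, 0.14, 0.282 and 0 CPM in E, the largest change of the list (log2(FC) of 4.13, SE 0.78, adjusted p = 0.001). Mmrn1 (multimerin, a platelet granule protein) and Tubb1 (the tubulin of the platelet rim) rose by 1.90 (SE 0.57) and 1.87 (SE 0.55), the former not without rat C89 and the latter not without rat C90. The summed level was 14.6 to 21.1 CPM in C and 4.55 to 7.04 CPM in E, 5 to 18.7 CPM in A and 5.48 to 7.52 CPM in B.

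Over the 3 blood lists, 27 of 32 genes rose in ±SCI(st), against 7.34% of all genes tested, while 31 of the 32 had a log2(FC) below 0 in ±SCI(0), as did 52.8% of all genes tested. An unadjusted interaction p under 0.05 was found for 30 of the 32, against 4.11% of all genes tested, and none passed after adjustment over all genes. Groups C and B, between which most of these genes were picked, both enter the interaction, and B enters ±SCI(0). None of these counts is therefore independent of how the genes were named. The part of blood or marrow cells in the rises of ±SCI(st) was not tested.

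**Figure D4:**
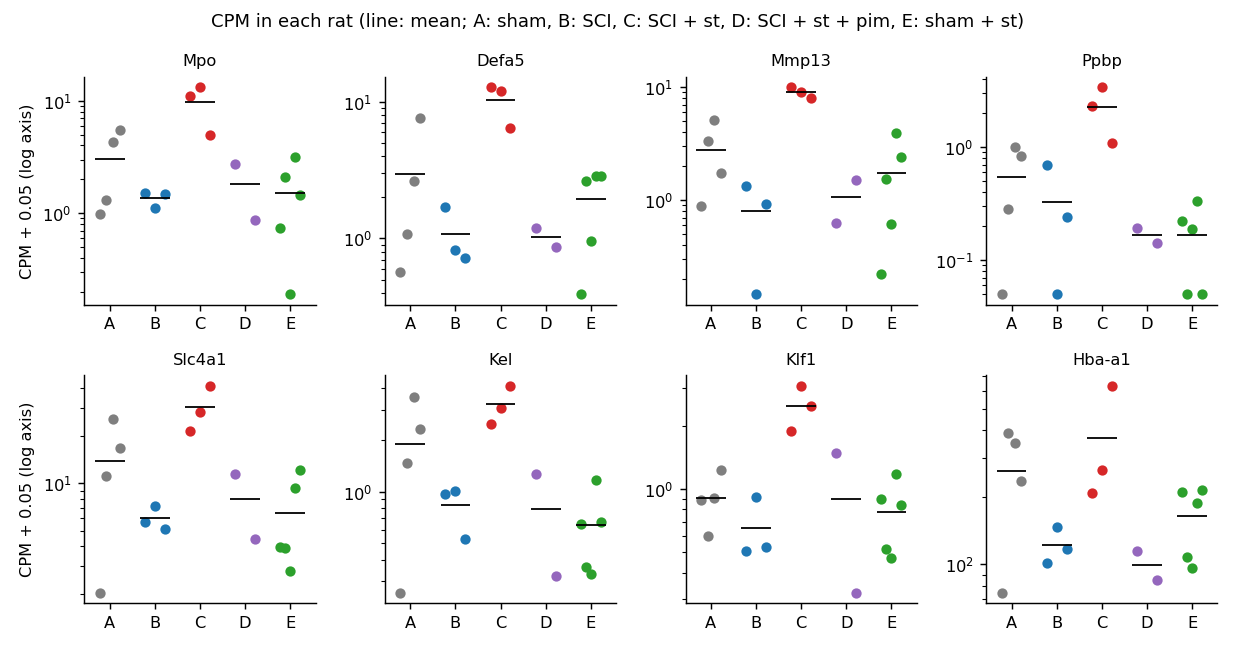
CPM + 0.05 on a log axis for 8 genes (Mpo, Defa5, Mmp13, Ppbp, Slc4a1, Kel, Klf1 and Hba-a1), with 1 point for each of the 17 rats and a line at the mean of each group. The 3 rats of group C lie above the 5 rats of group E in all of them except Hba-a1, where C89 (210 CPM) lies below the highest rat of E (216 CPM), and groups A and E spread widely.

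Mmp13, a collagenase of the matrix metalloproteinases, was the only named member of the protease list of 18. It stood at 9.91, 9.02 and 7.9 CPM in C and at 0.17, 1.48, 0.56, 3.85 and 2.36 CPM in E, at a log2(FC) of 2.44 (SE 0.59, adjusted p = 0.0064). In ±SCI(0) its log2(FC) was -1.86 (SE 0.80, not called), and the interaction was 4.29 (SE 1.00, adjusted p = 0.804). Timd2, which in rodents binds ferritin at the cell surface, was at 1.74, 2.12 and 3.04 CPM in C and at 0.68, 0.156, 0.21, 0.282 and 0 CPM in E, the largest rise of a named gene with a mean of at least 1 CPM over the 8 rats (log2(FC) of 3.07, SE 0.59, adjusted p = 0.0011). Without rat E69 the log2(FC) of Timd2 was 3.74. Robo-1 and the ABC transporter gene Abca13 rose by 2.10 (SE 0.60) and 1.66 (SE 0.35), and Robo-1 was not called without rat C89 or without rat C90.

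RGD1564883, which RefSeq lists under Rpl12a-ps1 as a pseudogene, varied widely within groups A and E. It stood at 19.9, 13.7 and 10.6 CPM in C, and in group E at 6.21 and 8.17 CPM in rats E69 and E87 but at 0, 0.14 and 0.0875 CPM in rats E85, E86 and E88. Its log2(FC) of 2.38 (SE 0.90, adjusted p = 0.059) did not pass, but passed without E69 or without E87, without the filter on low counts and with the number-series term. Without E87 the log2(FC) was 3.23. In group A it was at 15.4, 14.6, 0.76 and 11.5 CPM and in group B near 0.1 CPM in each rat, and in ±SCI(0) it was called lower (log2(FC) of -6.65, SE 1.77, adjusted p = 0.021). The interaction was 9.03 (SE 1.97, adjusted p = 0.804). Group E thus held rats at either level, and copies of the parent gene make its reads uncertain.

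Masp1, a protease of the lectin pathway of complement, was the only named member of the complement list of 17 and varied little within the groups. It was at 31.5, 30.6 and 26.8 CPM in C and at 17.5, 16.2, 20.8, 17.6 and 19 CPM in E, without overlap, and its log2(FC) of 0.70 (SE 0.10, adjusted p = 0.00012) passed the FDR but not the limit on fold change. The difference was of similar size in ±SCI(0), with a log2(FC) of 0.59 (SE 0.11).

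Of 23 interferon response genes 7 were measured, of which 2 rose, 1 fell and 4 did not pass, where 7.34% of all genes tested rose and 0.977% fell. The median log2(FC) was 0.81, and 1.12 in ±SCI(0). Only 1 gene of the list rose under edgeR's exact test, with groups C and E fitted alone by DESeq2 or by the quasi-likelihood test, with scaling by total counts, without the filter on low counts and with the number-series term, and also without E69, E87 or E88. Mx1, an antiviral GTPase, stood at 13.2, 49.2 and 15.5 CPM in rats C89, C90 and C93 and at 4.76, 10.6, 10, 8.82 and 7 CPM in E (log2(FC) of 1.64, SE 0.48, adjusted p = 0.017), and it rose by 2.04 (SE 0.51) in ±SCI(0). Rat C90 was the highest in each of Mx1, Mx2 and Ifit2, and without it the log2(FC) of Mx1 was 0.79 and 0 genes of the list rose. Mx2 was at 16.3, 55.3 and 30.1 CPM in C and 19.5 to 29.4 CPM in E and did not pass (log2(FC) of 0.54, SE 0.32), nor did Ifit2 (0.28, SE 0.21).

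Gbp6, a guanylate-binding GTPase induced by interferon, went the other way. It had 2 counts over the 3 rats of C and 83 over the 5 rats of E, a ratio of E over C of 23.1 (95% exact counting interval 6.19 to 194). In every rat of E it was at 0.788 to 2.3 CPM, and in group A at 0.157 to 1.68 CPM and in group B at 0.459 to 2.89 CPM. It was called (adjusted p = 0.021), and leaving out any of the 3 rats of C ended the call.

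Most named falls were of small RNAs, noncoding transcripts of the spliceosome (snRNA), of RNA modification in the nucleolus (snoRNA) and of other kinds (misc RNA). Of 32 tested, 28 were called lower in C (28 of 32, against 0.977% of all genes), with a median log2(FC) of -2.21 (-2.21 also with the member at 0 counts set to its bound). By class, 13 of 16 snoRNAs, 8 of 9 snRNAs and 7 of 7 misc RNAs were called. The study had picked 31 of the 32 between D and C and 1 between C and B, picks that again use group C.

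AABR07060522.2, which the study's table places in the Y RNA family RF00019 (small cytoplasmic RNAs bound by the Ro protein), stood at 54, 88.5 and 67.3 CPM in C. In rats E69, E85, E86, E87 and E88 it stood at 1311, 1040, 564, 578 and 1801 CPM. Its log2(FC) was -3.92 (SE 0.87, adjusted p = 0.0034), and every rat of C was below every rat of E. However, it was at 1199 CPM in rat A82 and at 78.2 to 88.9 CPM in the other 3 rats of group A, at 49.8 to 91 CPM in group B, and at 737 and 926 CPM in the 2 injured rats of group D. AABR07051357.1, a copy of U6atac of the minor spliceosome, was at 0.868 to 1.66 CPM in C and 9.45 to 24.8 CPM in E (log2(FC) of -3.72, SE 0.71), and AC135285.4, a snoRNA of the SNORA74A family, at 1.39 to 2.12 CPM and 9.87 to 26.5 CPM (log2(FC) of -3.37, SE 0.71). Further large falls were those of AC119459.4 (log2(FC) of -3.49), AABR07060522.3 (-3.33), AABR07021745.1 (-3.14), AABR07072283.2 (-2.91) and AABR07052881.1 (-2.59), the last not called without rat C89.

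Summed over the small RNAs, the level was 435 to 557 CPM in C and 1965 to 5003 CPM in E. It was 3136 CPM in rat A82 and 493 to 558 CPM in the other rats of A, 375 to 623 CPM in B, and 2401 and 2960 CPM in D. High and low levels were therefore both found among intact rats and among injured rats. In ±SCI(0) the median log2(FC) of the 32 was -0.73, and without rat A82 it was 0.10. Without that rat, 29 of the 32 had an unadjusted interaction p under 0.05, as did 863 of all genes in that fit, and with all rats 635 of all genes did (4.11%). Called in the interaction without that rat were 3 genes, all small RNAs, namely AABR07060522.2 (-3.66, SE 0.51, adjusted p = 0.02), AABR07060522.3 (-3.20, SE 0.45, adjusted p = 0.02) and AC097575.3, a U4 snRNA copy (-1.64, SE 0.24, adjusted p = 0.026). Rat A82 stood out in group A by these same RNAs, and group C, which the picks use, enters the interaction. These counts and calls are therefore not independent evidence of a difference between the contrasts. Copies of small RNA genes in the genome share reads, so the counts of a single copy are uncertain. The part of differences between libraries in these falls was not tested.

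AY172581.15, a mitochondrial tRNA, fell with them, from 4.76 to 24.2 CPM in E to 1.04 to 1.65 CPM in C (log2(FC) of -2.96, SE 0.61, and -2.35 without rat E69). It was also at 14.5 and 7.54 CPM in D.

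Slc17a7, the vesicular glutamate transporter 1, had the largest fall of the named protein-coding genes that averaged at least 1 CPM over the 8 rats. It stood at 0.261, 1.29 and 0.434 CPM in rats C89, C90 and C93 and at 3.57, 7.26, 3.57, 4.51 and 7.18 CPM in E, without overlap (log2(FC) of -2.98, SE 0.52, adjusted p = 0.00056). Without rat C90, the highest of C, the log2(FC) was -3.87. In ±SCI(0) its log2(FC) was -0.42 (SE 0.44, not called), with 1.71 to 5.83 CPM in A and 2.12 to 3.58 CPM in B, and the interaction was -2.55 (SE 0.68) and did not pass. In group D it was at 0.998 and 2.64 CPM, the former within the range of C and the latter within that of B. The study had picked it between C and B.

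**Figure D5:**
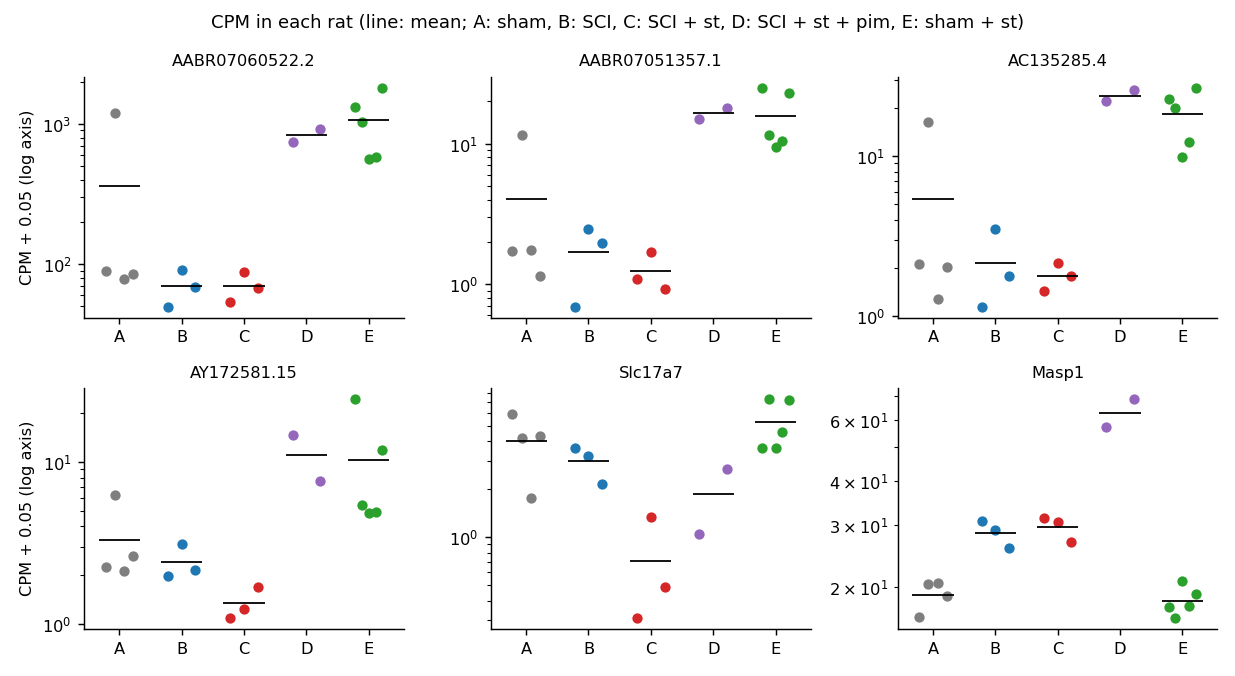
CPM + 0.05 on a log axis for 4 small noncoding RNAs (AABR07060522.2, AABR07051357.1, AC135285.4 and AY172581.15), Slc17a7 and Masp1, with 1 point a rat and a line at the mean of each group. The 4 RNAs are high in E, D and rat A82 and low in B and C, Slc17a7 is lowest in C, and Masp1 is higher in all injured groups than in A and E.

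AABR07043200.1, whose class differs between the study's lists, had 0 counts in C and 46 in E, at least 8.53-fold higher in E with a floor of 3 counts over group C, but was at 0 CPM in rat E86 and was not called (adjusted p = 0.098), whereas DESeq2 and edgeR's exact test called it. Of the 43 transcripts that the study had picked between C and B, 30 were higher, 2 were lower and 11 were not called in ±SCI(st), where 7.34% of all genes tested were higher and 0.977% lower. In ±SCI(0) 0 were called higher and 1 lower, against 5.09% and 0.213% of all genes tested, and their median log2(FC) was 1.76 in ±SCI(st) and -0.98 in ±SCI(0). Groups C and B both belong to that pick, so the direction in neither contrast is independent of it.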

How the data were processed

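RNA from 17 rat spinal cords was sequenced after depletion of ribosomal RNA, and per the labels and methods the authors trimmed 75-base single-end reads with Trim Galore 0.4.1 and counted them per Ensembl gene with STAR 2.5.0a. The submitters' processing notes name bcl2fastq 1.8.4 and Rnor_6.0 (rn6), whereas the methods name another build, and the strand setting is not given in the sources used here. The deposited counts are whole numbers without normalization. Groups came from the sample titles.

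The count model was edgeR 4.0.16 (with limma 3.58.1, under R 4.3.3): filterByExpr, TMM scaling, glmQLFit with a coefficient for each of 5 groups, glmQLFTest, and Benjamini-Hochberg adjustment over 15460 genes. All 17 rats share 1 estimate of the spread. DESeq2 1.42.0, edgeR's exact test and the other settings of the closing section were alternatives. Figures were made in Python 3.11.15 with matplotlib 3.10.9 (numpy 2.4.6, pandas 2.3.3). The fit was tested on simulated data. Labels do not say how many litters or batches the rats came from, so p-values measure the spread between these rats. Counting intervals and floors cover counting error only.

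The members and gene lists were chosen with earlier results of these data known. Named genes are the 3 most abundant measured members of each list and those that the paper names, the 10 called genes with a symbol with the largest rise and the 10 with the largest fall among those averaging at least 1 CPM in groups C and E without overlap, and the 5 with the smallest interaction p. Set tests, the microRNA genes and the 35 lists without a named member (microglia, macrophages, neurons, glia, vessels, lipid synthesis, cell division, matrix and others) were not analysed here. Promoter windows were read from RefSeq for 44 of 98 symbols. No column of other samples was in the table.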

Additional observations from a re-analysis of the deposited data

Results flagged for a closer look

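Among 104 sets of values in groups A and E (named genes, summed lists and total counts), 15 held a rat whose gap to the next was above Dixon's 95% critical value. Chance gives about 5% for independent sets of normal values. Raw CPM need not be normal and the sets share rats and genes, so that rate need not hold here. Groups of 3 rats or fewer were not tested. In group E rat 87 was far above the other 4 rats for Tubb1 (1.41 CPM, the others 0.391 to 0.63), Car1 (3.38 CPM, the others 0.0781 to 0.525) and Abca13 (1.69 CPM, the others 1.05 to 1.19).

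In group A rat 82 stood above the other 3 rats for AABR07060522.2 (1199 CPM, the others 78.2 to 88.9), AABR07051357.1 (11.4 CPM, the others 1.08 to 1.71), AC135285.4 (16.2 CPM, the others 1.23 to 2.08), AABR07060522.3 (1154 CPM, the others 131 to 175), AABR07021745.1 (2.82 CPM, the others 0.665 to 0.987), AY172581.15 (6.2 CPM, the others 2.09 to 2.56) and the summed small RNAs (3136 CPM, the others 493 to 558). Rat 84 of group A stood above the others for Mx1 (12.7 CPM, the others 5.8 to 6.25), Np4 (9.87 CPM, the others 0.313 to 1.42), Elane (2.27 CPM, the others 0 to 0.19) and Car1 (3.16 CPM, the others 0.104 to 0.471), and rat 83 for Tubb1 (3.99 CPM, the others 0.592 to 0.941). No difference between the injury effect in stimulated and in unstimulated rats passed the test of that difference with all rats.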

How the results depend on the processing

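The count of genes called in ±SCI(st) was 1134 to 1381 under 11 other settings (DESeq2, edgeR's exact test, scaling by total counts or RLE, other filters on low counts, robust dispersions, a number-series term and a fit of groups C and E alone), and 87.1% to 89.6% of the calls were higher in C under these and with each rat left out. Without a limit on fold change 4429 genes passed (2685 higher and 1744 lower, so that 60.6% were higher), 1912 passed in ±SCI(0) and 1632 in both. With each rat left out in turn, ±SCI(st) gave 812 (without C89) to 1554 genes (without C93), 725 to 1354 of them higher and 87 to 200 lower, ±SCI(0) gave 557 (without B91) to 889 (without B94), and 517 to 793 genes were called in both. The settings for ±SCI(0), the fits of each pair alone and, for the genes called in both, the series term and leaving out each rat of A and B were chosen after seeing the data. The interaction, which needs 4 groups, was not run with groups C and E alone, and it gave 0 genes under the other settings run on all 17 rats and 0 to 3 with each rat left out, the 3 without rat A82. Of 898 values of named genes under alternatives, 837 kept their direction and side of the threshold, 43 lost a call and 17 gained 1, and the log2(FC) of Mx2 ranged from -0.00402 without rat C90, a reversal, to 0.88 without rat C89. The causes were not tested. No paired analysis was possible because the rat numbers are unique and the groups share none. With 3 rats in C and 5 in E and 10.7 to 14.3 counts a rat at 1 CPM, changes of genes under 1 CPM rest on few counts.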

Other observations

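The genes below belong to no marker or pathway list, were not given by the naming rule and were chosen after their values were seen. Hnrnpa2b1, an RNA-binding protein of the nucleus and the most abundant of them, stood at 210, 201 and 166 CPM in rats C89, C90 and C93 and at 79.3, 92.7, 84.2, 108 and 93.4 CPM in group E, a log2(FC) of 1.07 (SE 0.14, adjusted p = 3.78e-05), and its log2(FC) in ±SCI(0) was 0.37 (SE 0.15, not called), with 90 to 154 CPM in group A and 160 to 177 CPM in group B. Aqp1, a water channel of red cells and other cells, was at 14.5, 13.1 and 8.6 CPM in C and at 2.3 to 6.2 CPM in E (log2(FC) of 1.57, SE 0.47). Epx, the peroxidase of eosinophils, did not pass, at 1.22, 1.84 and 1.74 CPM in C and 0.425 to 2.16 CPM in E (log2(FC) of 0.26, SE 0.74), and its log2(FC) in ±SCI(0) was -2.72 (SE 0.99, adjusted p = 0.083). Ltc4s, the synthase of leukotriene C4, had a log2(FC) of -0.24 (SE 0.32) in ±SCI(st) and rose by 1.09 (SE 0.33) in ±SCI(0).

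Of the pseudogenes of ribosomal proteins, Rps21-ps1 fell from 2.25 to 4 CPM in E to 0.368 to 1.04 CPM in C (log2(FC) of -1.95, SE 0.41), and Rps27a-ps1 from 1.4 to 2.98 CPM to 0.521 to 1.29 CPM (log2(FC) of -1.29, SE 0.47). In rat A82 they stood at 2.9 and 2.35 CPM, the highest values of group A.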
